A study of Mus musculus with 34 samples.

Results

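The genes of voltage-gated sodium and calcium channel subunits were followed in ribosome footprints (RPF, the mRNA fragments that ribosomes protect) and in RNA of the mouse hippocampus. Members were all genes whose symbol begins with Scn, a number and a or b, or with Cacna, Cacnb or Cacng, and 31 of the 11531 genes in the tissue tables met that rule, which used no measured value. They comprised 6 sodium channel alpha subunit genes (Scn1a, Scn2a1, Scn3a, Scn7a and Scn8a among them), 4 sodium channel beta subunit genes (Scn2b, Scn3b and Scn4b among them), 8 calcium channel alpha1 subunit genes (Cacna1a to Cacna1e and Cacna1g to Cacna1i), 3 alpha2delta genes, 4 calcium channel beta genes and 6 gamma genes. Of these, 27 were among the 10379 genes of the table for primary hippocampal culture and 11 among the 11029 genes of the table for embryonic stem cells (ESC). The reference annotation held 9 more genes that meet the rule, among them Scn9a and Cacna1s, which are not analysed here.

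The tissue groups were hippocampi of C57BL/6N mice taken without stimulus (control) or at 5, 10 or 30 min or at 4 h after contextual fear conditioning, a training that gives 1 foot shock in an unfamiliar chamber. The protocol describes mice housed singly and handled daily before conditioning, and gives no genotype change, sex or age. Each group had 3 RPF and 3 RNA libraries that carry the replicate numbers 1 to 3. Hippocampal primary culture, and ESC of the line A3-1 treated with an siRNA against luciferase, had 1 library of each kind apiece, so their values have no replicates. The sources used here do not say whether replicates are separate animals or pools, and p-values therefore cover the spread between libraries alone, which can be technical.

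Voltage-gated sodium channels carry the rising phase of the action potential. Each has a large pore-forming alpha subunit and smaller beta subunits, single-pass membrane proteins that modify gating and bind adhesion partners. Voltage-gated calcium channels couple depolarisation to transmitter release, gene expression and firing patterns. Their alpha1 subunit forms the pore, the cytoplasmic beta subunit brings it to the membrane, and the extracellular alpha2delta subunit raises its surface level. Most neuronal gamma genes are named for homology to a skeletal muscle channel subunit, and their proteins serve chiefly as TARPs, auxiliary subunits of AMPA-type glutamate receptors.

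Tissue RPF libraries held 14240563 to 30480009 reads on listed genes and tissue RNA libraries 16814796 to 25515210. A gene entered the tests when its mean signal was at least 1 over the 15 libraries of a kind, where signal is the deposited value, reads divided by 1 number per library. This left 28 members in RPF and 26 in RNA, and all 26 could be compared between the kinds. In neither kind did 3 members pass, Cacnb2 and Scn7a among them, and Cacng2 and Cacng4 passed in RPF alone. Among members compared between kinds, the lowest value rested on 313 reads in RPF and 424 in RNA. Because coding lengths were not used here, levels are compared between samples and never between genes. Fewer cells of a type and less RNA per cell cannot be told apart in these bulk samples. All 11 marker genes of hippocampal pyramidal and granule neurons were listed in the tissue tables, and 0 of 6 markers of pluripotent cells were.

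Tissue RPF libraries with replicate number 1 were deeper than the others. Their depth was 24081134 to 30480009 reads, against 14240563 to 20644094 for number 2 and 15928292 to 19245717 for number 3. RNA depth overlapped, at 21045654 to 25515210 reads for number 1, against 17860459 to 22779768 and 16814796 to 19138650. The counts of members called at baseline, and the values of some members, are given with and without the number 1 libraries.

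Upstream sequences are shown for a pair of members, because the ESC table, the only non-neural source here, lists some members and not others. RefSeq windows of 250 bases before an annotated start on GRCm38.p6 were matched to 23 of the 31 members. Where a gene had several starts, the window with the most CG pairs was taken. The capitals mark CG pairs. Scn8a encodes a sodium channel alpha subunit of axon initial segments and nodes of Ranvier and was listed in ESC. Scn2b encodes a beta subunit that is disulfide-linked to alpha and was not listed in ESC. Their windows lie at chr15:100870395-100870644 and chr9:45117626-45117875, both on the plus strand.
Scn8a: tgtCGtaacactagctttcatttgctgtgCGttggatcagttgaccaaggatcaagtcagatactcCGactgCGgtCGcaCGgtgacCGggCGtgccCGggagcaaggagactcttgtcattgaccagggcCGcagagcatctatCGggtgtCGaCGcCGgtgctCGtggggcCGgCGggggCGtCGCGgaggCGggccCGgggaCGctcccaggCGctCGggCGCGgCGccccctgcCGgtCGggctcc
Scn2b: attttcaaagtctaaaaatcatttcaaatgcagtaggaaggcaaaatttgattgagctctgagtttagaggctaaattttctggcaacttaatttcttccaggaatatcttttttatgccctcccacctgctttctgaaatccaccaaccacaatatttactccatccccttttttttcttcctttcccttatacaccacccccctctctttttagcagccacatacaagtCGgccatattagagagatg
The Scn8a window held 30 CG pairs and the Scn2b window 1, against a median of 6 over the 27025 genes with a window. This contrast did not extend to the members as a whole. The 7 windows of members listed in ESC held 0 to 36 CG pairs (median 26), and the 16 of members not listed there held 1 to 50 (median 16), so the ranges overlapped throughout. Cacng8, listed in ESC, had 0 CG pairs, and Cacna1d, not listed there, had 50. The letters GGGCGG occurred on either strand in 13 of 23 member windows, against 34.4% of all windows. TATAAA occurred in 1, that of Scn2a1, against 12.5% of all windows, and TGACGTCA in 0, against 1.64%. A match describes letters in these windows and nothing about binding.

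Footprints were set against RNA in control hippocampus to ask how densely each subunit mRNA carried ribosomes relative to other mRNAs. The footprint to RNA ratio (translational efficiency, TE) is given as log2 of the RPF signal plus 1 over the RNA signal plus 1, after each library's median gene was subtracted, so 0 marks a gene at the centre of the library. Gamma subunit genes lay above 0 in all 4 cases tested, sodium channel genes lay above 0 in 1 of 8, and Cacng8 stood highest of the 26 members at 2.39, a 5.24-fold ratio. Scn2b stood lowest, at -1.13. By limma with Benjamini-Hochberg adjustment over 7103 genes, 17 of 26 members differed from 0 at an adjusted p under 0.05, 11 higher and 6 lower. Over all genes 76.6% were called, 41.8% higher and 34.8% lower, against 65.4%, 42.3% and 23.1% of the members, so the counts as such were close to or below the background. The median member lay at 0.26 and the median gene at 0.06.

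**Figure D1:**
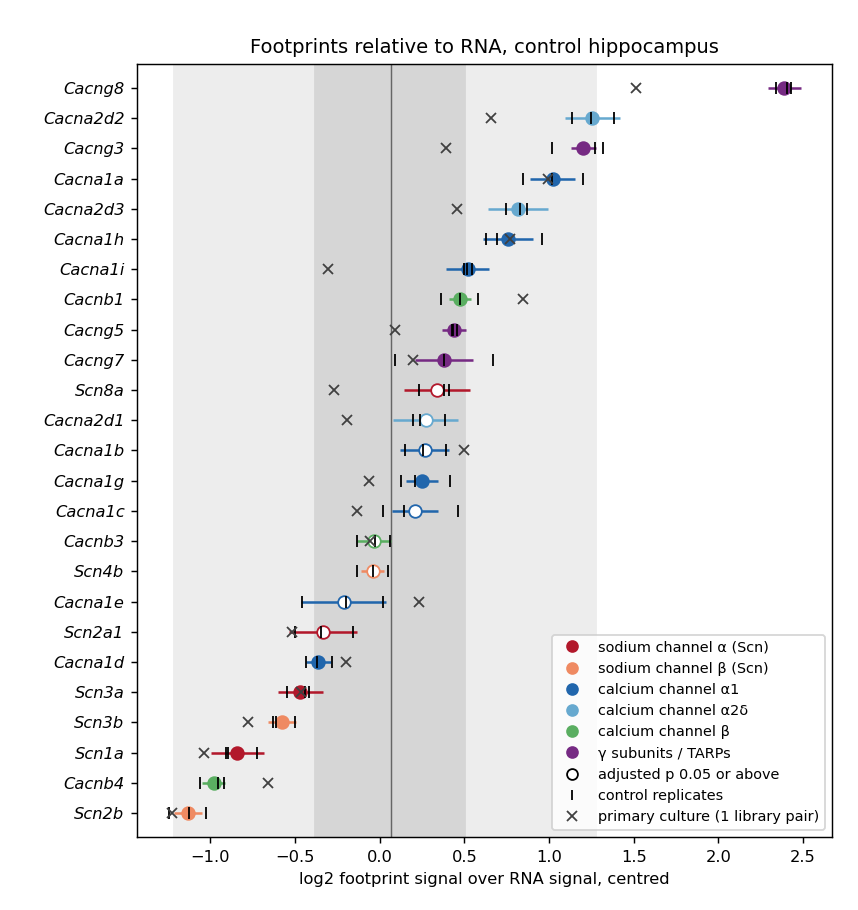
Footprint to RNA ratio (log2, centred on each library's median gene) of 25 members in control hippocampus, with the mean and the SE of the model as a circle and line, control replicates as ticks and the culture library pair, centred on its median ratio, as a cross. The dark band spans the middle 50% of all genes (-0.38 to 0.51) and the light band the middle 90% (-1.22 to 1.27), and only Cacng8, at 2.39, lies above the light band.

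Calls at baseline depended on how the replicate number was treated, because its spread enters the error. With the replicate number as a block, 23 of 26 members were called, 15 higher and 8 lower. Of all 7103 genes tested, 6151 were called with the block, so the added calls were not particular to the members. Without the number 1 libraries of every group, 20 members were called, 12 higher and 8 lower. The share over all genes is not given for that fit. The sources used here do not say whether reads were counted over whole transcripts or over coding parts, which bears on any ratio between the kinds.

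Sodium channel alpha subunits had ratios at or below those of most genes, apart from Scn8a. Scn1a, the alpha subunit prominent in inhibitory interneurons, had RPF signals of 7.24, 5.01 and 6.13 and RNA signals of 14.8, 10.5 and 10.97 in control replicates 1 to 3. Its footprints were below its RNA in each library pair. Its TE was -0.84 (SE 0.16, limma adjusted p = 2.97e-05). Scn3a, an alpha subunit best known from the developing brain, had a TE of -0.47 (SE 0.13, limma adjusted p = 0.00264). Scn2a1, the gene also called Scn2a and a main alpha subunit of excitatory axons, had RPF signals of 33.7, 20.3 and 27.8 and RNA signals of 44.3, 29.6 and 31.7. Its TE of -0.34 did not pass (SE 0.20, limma adjusted p = 0.130) but did with the replicate block (adjusted p = 1.16e-05) and over the mean of all 5 groups (-0.35, adjusted p = 0.00071). Scn8a had RPF signals of 32.6, 21.4 and 25.02, above its RNA signals of 25.5, 18.4 and 18.9 in each replicate. Its TE of 0.34 did not pass either (limma adjusted p = 0.117). It passed with the block (limma adjusted p = 8.77e-06), without the number 1 libraries (adjusted p = 0.00771) and over the mean of all 5 groups (0.33, adjusted p = 0.00107). Over all 15 tissue library pairs, TE ran between 0.14 and 0.51 for Scn8a, between -0.50 and -0.05 for Scn2a1 and between -0.97 and -0.62 for Scn1a, so these 3 ranges did not overlap. Scn7a, an alpha-like sodium sensor, stayed under the filter with RPF signals of 0.49 to 0.81 in control replicates.

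Sodium channel beta subunits lay below 0 in all 4 cases, and 2 of them passed. Scn2b had RPF signals of 12.2, 11.4 and 12.7, against RNA signals of 31.0, 26.4 and 27.3 in control replicates 1 to 3. The plain ratio of footprint to RNA signal ran between 0.36 and 0.471 over the 15 tissue pairs. Its TE was -1.13 (SE 0.08, limma adjusted p = 5.09e-12), lower than in all but 5.94% of the genes tested. Scn3b, which pairs with alpha subunits non-covalently, had RPF signals of 15.97, 14.8 and 16.997 and RNA signals of 23.6, 23.6 and 27.2, and a TE of -0.58 (SE 0.08, limma adjusted p = 6.59e-07). Scn4b, a beta subunit tied to resurgent sodium current, had a TE of -0.04 (SE 0.07, limma adjusted p = 0.572). The 15 tissue pairs ran from -0.24 to 0.05 for Scn4b, with 1 of them above 0. Centred on the median ratio of each pair instead, they ran from -0.31 to -0.03. Over the mean of all 5 groups the TE of Scn4b was -0.09 and passed (limma adjusted p = 0.00846).

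Calcium channel alpha1 subunits spread over both sides of the median gene. Cacna1a, the pore of the P/Q-type channel of presynaptic terminals, had RPF signals of 10.98, 8.59 and 8.22 and RNA signals of 4.37, 3.82 and 4.21 in control replicates. Its footprints exceeded its RNA by more than any other alpha1 gene, with a TE of 1.02 (SE 0.13, limma adjusted p = 1.68e-07). Among the T-type pores, which open near rest, Cacna1h had a TE of 0.76 (SE 0.15, limma adjusted p = 5.28e-05), Cacna1i one of 0.52 (SE 0.13, adjusted p = 0.000669) and Cacna1g one of 0.25 (SE 0.10, adjusted p = 0.0219). All 3 passed, but the call for Cacna1g was lost without control replicate 1 (0.17, adjusted p = 0.208), without control replicate 2 (0.27, adjusted p = 0.0512) and with libraries centred on their TMM-scaled total (0.20, adjusted p = 0.0641). The L-type pores differed in sign. Cacna1d had RPF signals of 2.15, 1.78 and 1.83, below its RNA signals of 2.93, 2.65 and 2.89, and a TE of -0.36 (SE 0.07, limma adjusted p = 9.08e-05). Cacna1c had a TE of 0.21 (SE 0.13, limma adjusted p = 0.159; 0.000129 with the block). Cacna1b, the N-type pore, had 0.27 (SE 0.15, limma adjusted p = 0.0997; 4.64e-06 with the block). Cacna1e, the R-type pore, had -0.21 (SE 0.25, limma adjusted p = 0.444; 0.00531 with the block). Cacna1e showed the widest spread among these, with replicate values of 0.02, -0.46 and -0.20.

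The alpha2delta genes lay above 0 in all 3 cases. Cacna2d2, one of the binding partners of gabapentin, had RPF signals of 8.39, 4.83 and 5.82, against RNA signals of 2.69, 1.70 and 1.92 in control replicates 1 to 3. Its TE was 1.26 (SE 0.16, limma adjusted p = 1.52e-07), with all 15 tissue pairs between 1.06 and 1.41. Cacna2d3 had a TE of 0.82 (SE 0.18, limma adjusted p = 0.000179). Cacna2d1, the main gabapentin target in pain pathways, had RPF signals of 42.5, 28 and 34.0 and RNA signals of 37.99, 24.1 and 26.2. Its TE of 0.27 did not pass (SE 0.19, limma adjusted p = 0.202). It passed with the block (limma adjusted p = 0.000722), without the number 1 libraries (adjusted p = 0.0097) and over the mean of all 5 groups (0.29, adjusted p = 0.00339).

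The cytoplasmic beta subunits went apart. Cacnb1 had RPF signals of 4.03, 4.46 and 3.86, against RNA signals of 2.46, 2.99 and 2.84, and a TE of 0.47 (SE 0.06, limma adjusted p = 3.81e-07). Cacnb4, the beta subunit whose loss underlies the lethargic mouse, had RPF signals of 5.29, 5.51 and 6.00, against RNA signals of 12.5, 11.6 and 12.8. Its footprints were below its RNA in every pair, and its TE was -0.98 (SE 0.07, limma adjusted p = 2.44e-12). Cacnb3 lay at -0.03 (SE 0.10, limma adjusted p = 0.766). The 15 tissue pairs ran from 0.36 to 0.72 for Cacnb1 and from -1.21 to -0.82 for Cacnb4.

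The gamma genes were higher in all 4 cases tested. Cacng8, the TARP gamma-8 that is abundant in hippocampus, had RPF signals of 22.3, 23.8 and 21.4, against RNA signals of 3.74, 3.70 and 3.30 in control replicates 1 to 3. The plain ratio of footprint to RNA signal ran between 5.73 and 7.48 over the 15 tissue pairs. Its TE was 2.39 (SE 0.10, limma adjusted p = 4.12e-17), higher than that of 99.7% of the genes tested. Cacng3, another TARP of forebrain neurons, had RPF signals of 5.43, 4.19 and 5.61, against RNA signals of 1.74, 1.61 and 1.69, and a TE of 1.202 (SE 0.07, limma adjusted p = 1.25e-13). Cacng5 and Cacng7, TARPs of the second class, had TEs of 0.44 (SE 0.07, limma adjusted p = 4.40e-06) and 0.38 (SE 0.17, adjusted p = 0.0452). The call for Cacng7 was lost without control replicate 1 (0.24, adjusted p = 0.292), without control replicate 2 (0.38, adjusted p = 0.122) and with libraries centred on their TMM-scaled total (0.33, adjusted p = 0.0783). Cacng2, which encodes stargazin, and Cacng4 had RNA signals under 1, with RPF signals of 1.89 to 2.27 and 0.98 to 1.09 in control, so no ratio was tested for them.

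**Figure D2:**
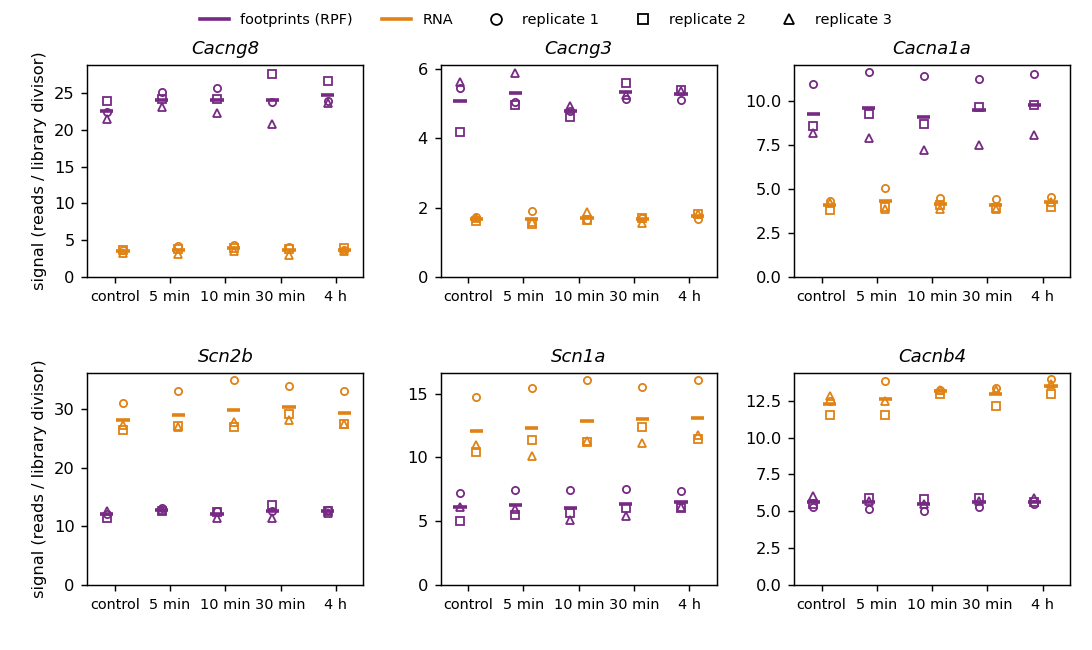
Signal (reads divided by the library's divisor, y axis) of 6 members by group (x axis), in footprints (purple) and RNA (orange), with 1 symbol per replicate and a bar at the mean. Cacng8, Cacng3 and Cacna1a have more footprint than RNA signal in all 15 pairs, and Scn2b, Scn1a and Cacnb4 have less.

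Genes that work with these channels also lay on both sides of the median gene. In the list of axon initial segment and sodium channel partners, 5 of 15 tested were higher, 4 lower and the median was -0.02. Cntnap1, which organises the junction beside nodes of Ranvier, had a TE of 1.67 (limma adjusted p = 2.24e-08). Fgf12, a cytoplasmic sodium channel modulator, had one of -0.74 (limma adjusted p = 1.37e-09). Among calcium channel regulators and presynaptic partners, 6 of 12 were higher, 3 lower and the median was 0.42. The release-site proteins Rims2 and Rims1, which bind calcium channels, had TEs of -2.19 and -1.77 (limma adjusted p = 4.87e-20 and 1.46e-18). Of the AMPA receptor complex, to which the TARPs belong, 7 of 11 were higher, 3 lower and the median was 0.40. Shisa7, another auxiliary subunit, had 1.73 (limma adjusted p = 1.48e-14) and Dlg2, a scaffold, -1.04 (limma adjusted p = 7.03e-13). Of genes of calcium stores and extrusion, 6 of 16 were higher, 8 lower and the median was -0.20, with the store-operated channel gene Orai2 at -1.65 (limma adjusted p = 1.77e-16) and the exchanger gene Slc8a2 at 1.79 (limma adjusted p = 1.43e-12).

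Primary hippocampal culture, centred on the median ratio of the genes shared with the tissue, placed most members on the same side. Of 25 shared members, 19 lay on the same side of the median gene in culture and tissue. The share of all shared genes that did so is not given, so this count is not read as a trait of the members. The Pearson correlation over these members was 0.885, against 0.867 over all 6947 shared genes, given as a description of the same genes in 2 sources. In both sources 4 members lay in the top 20% of genes and 4 in the bottom 20%. The share of all shared genes is not given for these counts either, so they are not read as a trait of the members. Cacng8 stood at the 98.2 percentile in culture and 99.7 in tissue, and Scn2b at 4.32 and 6.06. In culture, Cacng8 had 9.03 RPF and 2.45 RNA signal (2863 and 348 reads), and Scn2b 7.20 and 17.9 (2282 and 2539 reads). Cacna1a kept nearly the same value, 0.99 in culture and 1.02 in tissue, and Scn3a too, at -0.47 in both. Several ratios lay nearer to 0 in culture, with Cacng3 at 0.39 against 1.202 in tissue and Cacna2d2 at 0.66 against 1.26. Cacnb1 lay further out, at 0.85 in culture and 0.47 in tissue. With 1 library pair these differences were not tested.

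In ESC the 11 listed members had low signals apart from Cacna1a. Its RPF signal was 3.25 and its RNA signal 1.74 (2140 and 374 reads), and its TE of 0.53 ranked at the 80.8 percentile of ESC genes. Cacnb1 had 0.944 RPF and 1.25 RNA signal, and Cacng7 0.717 and 0.33. For the other 8 members, which include Scn8a, Scn3a and Cacng8, RPF signal was 0.0623 to 0.305 and RNA signal 0.0884 to 0.512. Cacng8 had 124 footprint reads and 25 RNA reads, a log2 ratio without the added 1 that lay 0.49 above that of the median ESC gene and whose 95% counting interval ran from -0.13 to 1.18. Intervals of this kind cover counting error only.

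Conditioning was compared with control at each time to ask which subunits gained or lost footprints or RNA. At 5 min, 10 min, 30 min and 4 h, 0 members passed by limma in RPF, RNA or TE, where the background was 0% of all genes in each comparison. The F-tests for any time and for a difference between times gave 0 members as well, and so did voom and the replicate block. The block did call a few of all genes: 0, 0, 4 and 0 of 7898 in RPF over the 4 times, and 3, 2, 2 and 1 of 8061 in RNA. In TE it called 1, 0, 0 and 0 of 7103, and each F-test with the block called 6 genes in RPF and 5 in RNA. The share over all genes is not given for voom. At an unadjusted p under 0.05, the members counted 0, 0, 0 and 0 of 28 in RPF and 1, 1, 0 and 1 of 26 in RNA over the 4 times, and the genes 51, 26, 20 and 42 of 7898 in RPF and 84, 150, 118 and 209 of 8061 in RNA. With the replicate block those member counts were 0, 0, 2 and 5 of 28 in RPF, where 6.89%, 3.28%, 2.76% and 6.04% of all genes had such a p. In RNA they were 2, 8, 5 and 8 of 26, where 6.6%, 12.01%, 10.04% and 16.3% of all genes did. Of these the smallest belonged to Scn2a1 RNA at 4 h (limma unadjusted p = 0.00241 with the block). Member log2 changes lay between -0.10 and 0.17 in RPF and between -0.10 and 0.16 in RNA. Without the block their SEs were 0.05 to 0.30 and 0.06 to 0.22, which include the spread between replicate numbers. With the block the largest of these fell, from 0.30 to 0.07 for Cacna1e in RPF and from 0.22 to 0.06 for Cacna2d1 in RNA. For comparison, Arc, an immediate-early gene induced by neuronal activity, had RPF changes of 0.46 at 10 min and 0.71 at 30 min (limma adjusted p = 1 and 0.207), neither past the threshold.

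**Figure D3:**
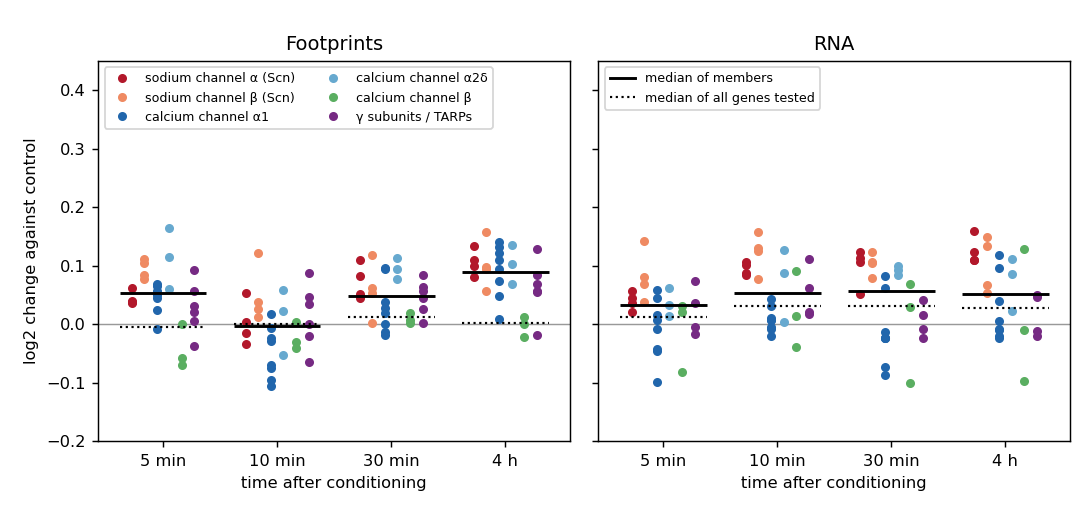
Log2 change against control (y axis) of each tested member at 4 times after conditioning (x axis), in footprints (28 members) and RNA (26 members), coloured by subunit family. All points lie between -0.10 and 0.17, and the member medians (solid lines) lie from -0.003 to 0.09 beside medians of all genes (dotted) from -0.005 to 0.03.

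Member medians at 5 min, 10 min, 30 min and 4 h were 0.05, -0.003, 0.05 and 0.09 in RPF, beside -0.005, 0.0005, 0.01 and 0.002 for all genes. In RNA they were 0.03, 0.05, 0.06 and 0.05, beside 0.01, 0.03, 0.03 and 0.03. Members higher than control in all 3 replicate numbers counted 9, 3, 3 and 10 of 28 in RPF, where 20.7%, 12.6%, 8.26% and 13.7% of all genes were. In RNA they counted 4, 13, 10 and 14 of 26, where 19.7%, 31.9%, 23.6% and 27.5% of all genes were. Members lower than control in all 3 numbers counted 2, 3, 0 and 1 in RPF (22.9%, 12%, 6.43% and 10% of all genes) and 0, 0, 2 and 0 in RNA (9.39%, 6.22%, 4.94% and 7.82%). In TE, 4, 0, 2 and 5 of 26 members were higher in all 3 numbers (14.8%, 7.18%, 8.35% and 12% of all genes) and 3, 5, 1 and 2 lower (22.7%, 24.2%, 17.3% and 22.8%).

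Without the replicate block, Scn4b had the smallest unadjusted p of any member, in RNA at 10 min (limma unadjusted p = 0.0153). Its RNA signals were 1.48, 1.78 and 1.71 at 4 h, against 1.44, 1.29 and 1.44 in control, so the 2 groups did not overlap. The share of all genes without such overlap is not given. The log2 change at 4 h was 0.15 (SE 0.06, limma unadjusted p = 0.0212, adjusted p = 1), and it was 0.14, 0.16 and 0.11 at 5, 10 and 30 min. Scn4b RNA was above control in 3 of 3 replicate numbers at each of the 4 times, which share their controls. With the block the adjusted p at 4 h was 0.184.

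Scn3b had the smallest p among higher members in RPF at 10 min, 30 min and 4 h in the fit without the block. With the block the smallest belonged to Scn3a at 30 min (0.11, limma unadjusted p = 0.0353) and to Cacna1b at 4 h. Cacna1b RPF changed by 0.14 at 4 h (limma unadjusted p = 0.00556, adjusted p = 0.630, both with the block). Scn3b RPF signals were 16.6, 18.3 and 18.7 at 4 h, against 15.97, 14.8 and 16.997 in control, and the groups overlapped. The log2 change was 0.16 (SE 0.08, limma adjusted p = 1, 0.752 with the block). At 5 min, without the block, the smallest p belonged to Scn4b in RPF, with a change of 0.10 (SE 0.07, limma adjusted p = 1).

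Among members below control, Cacnb1 had the smallest p in RNA at all 4 times. The rankings in this paragraph are from the fit without the block. With the block, Cacna1b RNA had a smaller p than Cacnb1 at 5 min (-0.10, limma unadjusted p = 0.0460 against 0.155). Cacnb1 RNA signals were 2.64, 2.31 and 2.60 at 4 h, against 2.46, 2.99 and 2.84 in control, with overlapping groups and number 1 on the higher side. The log2 change was -0.10 (SE 0.07, limma adjusted p = 1). In RPF the lower member with the smallest p was Cacnb1 at 5 min (-0.07), Cacna1g at 10 min (-0.10), Cacna1d at 30 min (-0.02) and Cacng4 at 4 h (-0.02), each with a limma adjusted p of 1. Partner lists gave 0 genes called at any time in either kind of library. The partner genes with the smallest unadjusted p at 4 h included Nptx2, a secreted pentraxin that clusters AMPA receptors, at 0.23 in RPF (SE 0.08, limma adjusted p = 1).

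Members also varied with the replicate number that the labels share between groups. Pore-forming alpha and alpha2delta genes were higher in number 1 libraries in both kinds. By limma's F-test over replicate numbers with Benjamini-Hochberg adjustment, 19 of 28 members in RPF and 22 of 26 in RNA were called, where the background was 73.1% and 65.5% of all genes. All 12 tested alpha genes, sodium and calcium together, were called in each kind, with folds of number 1 over numbers 2 and 3 of 1.14 to 1.66 in RPF and 1.11 to 1.44 in RNA. The 3 alpha2delta genes were called as well, with folds of 1.31 to 1.44 in RPF and 1.34 to 1.45 in RNA. Of beta and gamma genes, 4 of 13 tested were called in RPF (folds 0.85 to 1.07) and 7 of 11 in RNA (folds 0.627 to 1.21), with medians of 0.974 and 1.03. In RNA these folds overlapped with those of the alpha genes. The median gene had a fold of 1.02 in RPF and 1.05 in RNA. The difference between classes was seen in these data and was not tested.

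Cacna1e had the largest fold in RPF. Its 5 RPF signals with number 1 ran from 30.8 to 32.9, against 15.8 to 21.9 over the 10 libraries with numbers 2 and 3, with no overlap and a mean of 32.3, 19.9 and 18.9 in numbers 1 to 3. Scn8a ran from 32.6 to 34.2 with number 1, against 20.6 to 26.7 with the others. In RNA, Cacna2d1 ran from 37.98 to 40.9 with number 1, against 24.1 to 29.2. For these 3 members every number 1 library lay above every other library of its kind.

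Cacnb3 went the other way and ran from 4.91 to 5.26 in RPF with number 1, below its 5.28 to 6.03 with numbers 2 and 3. Cacng7 RNA ran from 1.49 to 1.67 with number 1, against 2.05 to 3.04 with the others, while its RPF signals overlapped. Cacng8 RPF signals overlapped as well, at 22.3 to 25.6 against 20.8 to 27.5.

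In all, 13 members in each kind were above numbers 2 and 3 without overlap (19.9% of all genes in RPF and 19.4% in RNA). Of the alpha genes, 10 of 12 were in RPF and 9 of 12 in RNA, and all 3 alpha2delta genes were in both. Members below without overlap were 2 in RPF (12.7% of all genes) and 1 in RNA (4.18%).

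**Figure D4:**
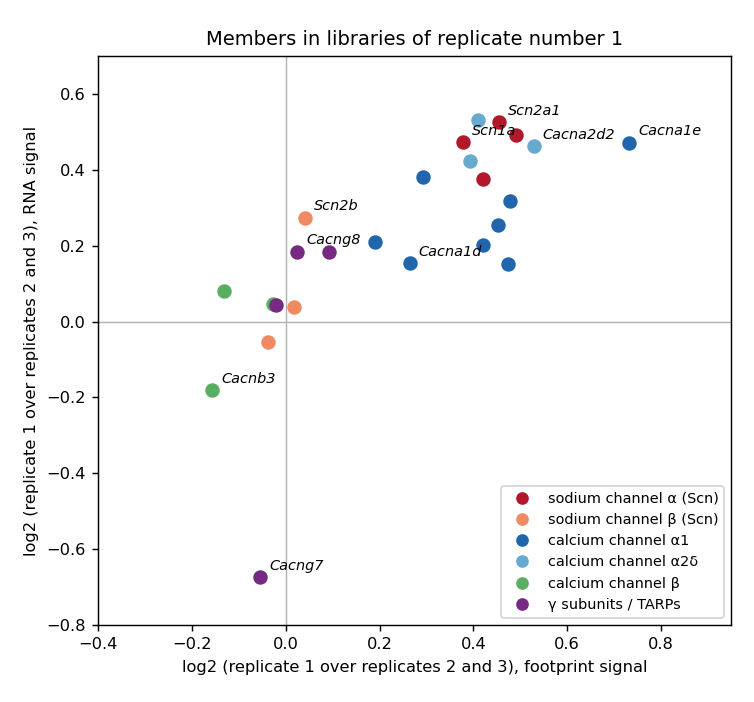
Log2 fold of the mean signal in number 1 libraries over numbers 2 and 3, in footprints (x axis) against RNA (y axis), for 25 members coloured by family. Alpha and alpha2delta genes lie above 0 on both axes, from 0.19 to 0.73 in footprints, and Cacng7 lies lowest in RNA, at -0.67.

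Markers of other cell types moved with the replicate number too. The 14 choroid plexus markers, all listed, summed to RPF signals of 1334 to 2121 with number 1, against 932 to 1919 with number 2 and 69.5 to 501 with number 3. The 8 astrocyte markers summed to RPF signals of 470 to 515 with number 1, against 330 to 431 and 376 to 441 with numbers 2 and 3. The 11 pyramidal and granule neuron markers summed to 396 to 417 with number 1, against 390 to 411 and 405 to 443, and the 9 inhibitory neuron markers to 122 to 128, against 117 to 138 and 127 to 138. The 8 microglia markers summed to RPF signals of 53.7 to 59.0 with number 1, against 38.7 to 49.4 and 47.1 to 51.9. The RPF sums of oligodendrocyte and of endothelial markers overlapped between number 1 and the others. In RNA, the pyramidal and granule neuron markers summed to 109 to 113 with number 1, against 98.7 to 104 and 114 to 123. The part of depth and of these cell types in the member values was not tested. Among partner lists, genes of calcium stores and extrusion had a median fold of 1.22 in RPF with 11 of 17 above numbers 2 and 3 without overlap. Axon initial segment partners had 1.07 with 6 of 15, calcium channel regulators 1.05 with 4 of 12 and the AMPA receptor complex 1.03 with 2 of 11. Of all genes, 19.9% were above in RPF. In RNA the counts in the same order were 9 of 16, 6 of 15, 4 of 12 and 1 of 12, where 19.4% of all genes were above.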

How the data were processed

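Footprints (RPF) and RNA were compared in 30 tissue libraries, with 2 from culture and 2 from ESC. The submitters' processing notes name CASAVA 1.8.2, Bowtie 1.1.1 and the genome build mm9. The deposited values, called signal, are in a unit the file headers do not name, and each came within 0.001 of a whole number of reads once multiplied by 1 number per library. The deposited log2 columns are, per the file headers, comparisons of each time with control and were not used. The sources used here do not say how the authors treated reads matching more than 1 gene or either strand.

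Tests used limma 3.58.1 in R 4.3.3 (lmFit, eBayes with a trend) on log2(signal + 1), for genes with a mean signal of at least 1, with all 5 groups of 3 in 1 model and no block. They were two-sided, and p-values were adjusted by Benjamini-Hochberg over all genes tested (threshold 0.05). Changes on this scale understate those of genes with low values. TE was the contrast between kinds of library in 1 model of 30 libraries, and its change over time the interaction of kind and group. The fits of time and of TE over time were also run on simulated data. The settings and outcome of that run are not given here, so it is not used to read the results over time. Replicate numbers pair the samples: deviations from the group means correlated at 0.402 to 0.938 (RPF) and 0.268 to 0.870 (RNA) between same-numbered libraries of different groups, in all 30 pairs of each kind.

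Named over time are the members with the smallest unadjusted p per direction, kind and time, without the block unless stated. The members, gene lists and naming rule were chosen with earlier results of these data known. A comparison of levels per coding length was planned and not made, since no lengths were used here. Alternatives were the replicate block, other pseudocounts, filters and scalings, robust and voom fits, other centring and libraries left out. Some genes are not reported here by name.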

Additional observations from a re-analysis of the deposited data

Results flagged for a closer look

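For 5 members in culture and 6 in ESC, the footprint to RNA ratio lay on one side of the median gene in all 15 tissue library pairs and on the other side in the single pair of that source. The share of all genes that changed side in this way is not given, so these counts are not read as a trait of the members. The differences were not tested, since culture and ESC have 1 library pair each. Values are log2((RPF + 1)/(RNA + 1)) minus the median of this ratio over genes, taken per library pair, so that 0 is the median ratio. Counting intervals are of the log2 ratio without the added 1, minus its own median over genes.

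In primary culture, Scn8a lay at -0.262, Cacna2d1 at -0.188, Cacna1g at -0.0536 and Cacna1i at -0.296, where all 15 tissue pairs lay above 0. Cacna1e lay at 0.239 in culture, where all 15 tissue pairs lay below 0. With each library centred on its median signal instead, 1 of the 15 pairs of Cacna1e lay above 0, at 0.02. Counting intervals in culture ran from -0.38 to -0.22 for Scn8a, from -0.28 to -0.15 for Cacna2d1, from -0.65 to -0.25 for Cacna1i and from 0.17 to 0.30 for Cacna1e. That of Cacna1g, from -0.56 to 0.29, included 0.

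In ESC, Cacna1b lay at -0.219, Cacna2d1 at -0.122, Cacnb1 at -0.309, Cacna1h at -0.0223, Scn8a at -0.119 and Cacng8 at -0.0101, where all 15 tissue pairs lay above 0. Counting intervals lay below 0 for Cacna1b (-1.22 to -0.34) and Cacnb1 (-0.81 to -0.39) and included 0 for Cacna2d1, Cacna1h, Scn8a and Cacng8. Without the added 1, Cacna1h lay at 0.55 and Cacng8 at 0.49, above the median ratio as in tissue, so their side turned with the added 1.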

How the results depend on the processing

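The replicate block gave 23 members called at baseline (15 higher, 8 lower), against 17 (11 and 6) without it, added Scn8a, Scn2a1, Cacna1b, Cacna1c, Cacna1e and Cacna2d1, and left the count at 0 for every time in RPF, RNA and TE. Over all genes, 6151 of 7103 were called at baseline with the block, against 5441 without it. A filter at a mean signal of 5 tested fewer genes and fewer members, so its counts cannot be set directly against the others. It gave 13 members called by replicate number in RNA, against 22, and 6 called at baseline, 1 of them higher, against 17 and 11. Baseline values are centred on the genes tested, and that of Scn2a1 went from -0.34 to -0.49 with this filter. The share over all genes is not given for it. Libraries were left out singly or by replicate number, and for TE as the RPF and RNA libraries of a number together. This gave 15 to 20 called at baseline (9 to 12 higher, 6 to 8 lower) and 0 at every time. It turned the sign of some values that had not passed: with single libraries left out, Cacnb1 RNA ran from -0.0975 to 0.00529 at 10 min and Cacna1d RPF from -0.0778 to 0.0580 at 30 min. With control library pairs left out, baseline Scn4b ran from -0.0881 to 0.0043 and baseline Cacnb3 from -0.0793 to 0.0155. With a whole number left out, Cacnb1 RNA ran from -0.117 to 0.0105 at 10 min and from -0.218 to 0.00689 at 30 min, Cacna1d RPF from -0.0738 to 0.0367 at 30 min and Cacng4 RPF from -0.0596 to 0.00773 at 4 h. Other counts stayed within 1.5 times under the pseudocounts 0.5 and 0.1, no filter, TMM scaling, robust eBayes, voom and other centring. Leaving out all libraries of 1 number, and voom, were chosen after seeing the data. The edgeR and DESeq2 fits were not run, because a check of the unit did not accept the recovered reads as counts. Read numbers therefore rest on the recovered divisors.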
